A study of Drosophila melanogaster with 103 samples.

Results

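The peaks described here are the regions bound by the N-terminal part of Trithorax (TrxN) in 2 cultured lines of Drosophila melanogaster, D17 and S2. They are all the peaks of the TrxN lists deposited for these lines, 2773 in D17 and 4373 in S2, together 7146 of the 227654 peaks of the series. A peak was called shared when at least 1 bp of it lay under a TrxN peak of the other line, and otherwise D17-only or S2-only. D17 (ML-DmD17-c3) is a line from imaginal discs, the larval tissues that form adult appendages, and S2 (S2-DRSC) is an embryonic line with features of blood cells. Neither line carried a labelled allele, transgene or treatment. For each line, chromatin was immunoprecipitated with the TrxN antibody in 2 replicate libraries fixed from different flasks, beside 1 input library.

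Trithorax is the founding member of the trithorax group, proteins that keep genes active once they have been switched on, and a methyltransferase of histone H3 lysine 4. The protein is cut into an N-terminal and a C-terminal fragment, which the series profiled with separate antibodies (TrxN and TrxC). Its counterparts are the proteins of the Polycomb group (PcG), which hold regulators of development in a silent state: PRC1 holds Ph, Pc and Psc, PRC2 holds E(z) and writes H3K27me3, and Pho and Sfmbt form a complex that binds DNA. H3K4me3 and H3K27ac mark active promoters, H3K36me3 marks the bodies of transcribed genes, and H2AK118ub1 is written by PRC1.

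The study deposited 1 peak list per antibody and line, with no values per library, so there is no spread between replicates and no test between lines. Shares below have exact (Clopper-Pearson) 95% binomial intervals, which cover counting error only. Folds are the authors' enrichments over input, and a fold percentile is the rank of a peak within its own list, 100 being the highest. The depth of the libraries is unknown. Numbers in the peak names run in genome order and skip 153 numbers in D17 and 217 in S2, and the peaks that carried them were not analysed here. Among 13 genes used as markers of disc cells, H3K4me3 lay within 500 bp of an end of 3 in D17 and 1 in S2, against 50.7% and 50.4% of all 13946 protein-coding genes. Among 13 blood cell markers it did so at 2 in D17 and 4 in S2, and NimC1, eater, Sr-CI, PPO1, lz and gcm had neither H3K4me3 nor H3K27ac in either line. H3K27ac, found at 54.8% of all genes in D17 and 52.1% in S2, lay at 6 of the disc markers in D17 and 2 in S2, and at 6 of the blood cell markers in each line. At markers of other cell types, H3K4me3 lay at 1 of 4 neuronal genes in D17 and 2 in S2, and at 2 of 4 muscle genes in each line.

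Nearly all TrxN peaks of D17 were also TrxN peaks of S2, while the reverse held for less of the longer S2 list. Of the D17 peaks, 2577 were shared, which is 92.9% of the list (interval 91.9% to 93.9%), and 196 were D17-only. Of the S2 peaks, 2570 were shared, which is 58.8% (57.3% to 60.2%), and 1803 were S2-only. Merged into places, the lists held 2564 places with both lines, 196 with D17 alone and 1803 with S2 alone. Among the 19 antibodies with a list in both lines, the shared share of TrxN ranked 1 in D17, ahead of H3K4me3 with 89.5%, and 11 in S2. With the S2 list shortened to its 2773 highest-scoring peaks, 82.1% of D17 and 81.8% of S2 peaks were shared. Lists of equal length whose peaks pair nearly 1 to 1 must give close shares, so this closeness tells nothing about the lines.

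The line-only peaks lay low in the lists by fold. The median fold was 2.80 in D17 shared peaks and 1.78 in D17-only peaks, and 5.18 in S2 shared peaks and 2.37 in S2-only peaks. The corresponding median percentiles were 52.8 and 11.5 in the D17 list, and 69.5 and 23.2 in the S2 list. The lowest 20% of a list by fold held 63.3% of the D17-only peaks and 43.4% of the S2-only peaks. The highest 20% held 3 D17-only and 15 S2-only peaks.

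Going up the list, the shared share climbed from 66.4% in the lowest 10% of D17 peaks to 99.6% in the highest. In S2 it climbed over a wider span, from 5.49% (3.55% to 8.06%) to 98.9% (97.4% to 99.6%). The highest 10% of both lists were thus almost entirely shared, and the lines differed mainly in the lower part of the S2 list. TrxN peaks were also narrower where they were line-only: the median width was 592 bp in D17 shared and 426 bp in D17-only peaks, and 729 bp in S2 shared and 483 bp in S2-only peaks.

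**Figure D1:**
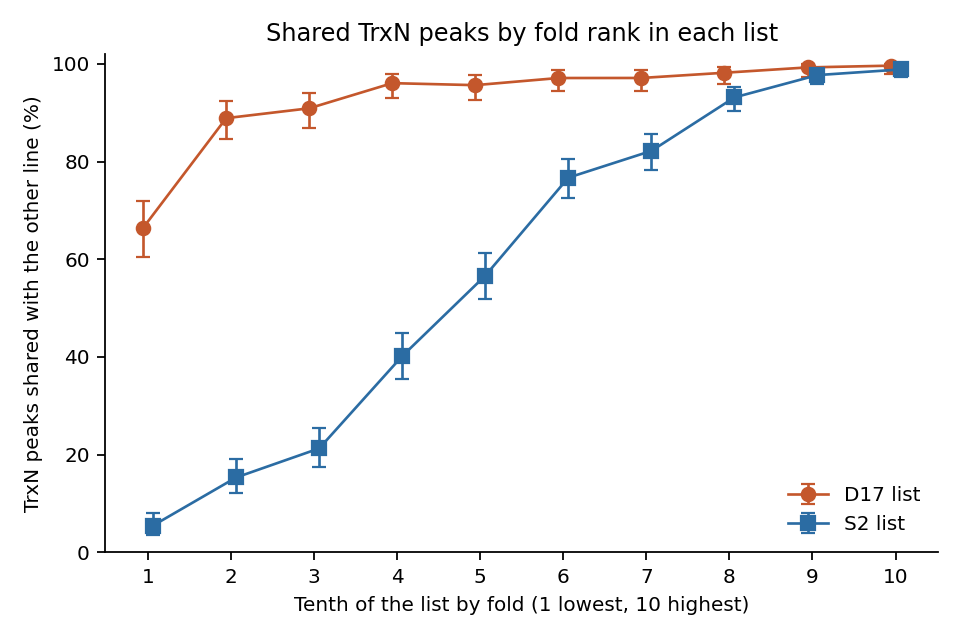
Share of TrxN peaks (%) that overlapped a TrxN peak of the other line, in steps of 10% of each list ranked by fold; bars are exact 95% binomial intervals. The D17 list is at 88.9% or more from the second step on, and the S2 list climbs from 5.49% to 98.9%.

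No peak lay near the limit of 1 bp. The smallest overlap of a pair was 225 bp, and the smallest gap between a line-only peak and the nearest peak of the other line was 250 bp for D17-only and 238 bp for S2-only peaks. Within 500 bp of a peak of the other line lay 3 D17-only and 18 S2-only peaks. The median distance was 18730 bp for D17-only and 11250 bp for S2-only peaks, so most line-only peaks stood alone rather than beside a shifted peak.

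Shared peaks sat at the same point of the DNA. In 2545 pairs of 1 D17 and 1 S2 peak, the summits were a median of 11 bp apart, and in 94.3% of the pairs they were within 100 bp. The S2 peak was the wider one in 81.6% of the pairs, with a median width of 727 bp against 590 bp. Peaks high in one list were high in the other: Spearman's rho of the folds was 0.829 and Pearson's r of their log2 values 0.833 over the 2545 pairs. These correlations are across peaks of 1 list per line, which are not replicates and share the genome's mappability and the input of their line. Of the 548 pairs in the highest 20% of the D17 list, 475 were also in the highest 20% of the S2 list, which held 853 pairs.

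**Figure D2:**
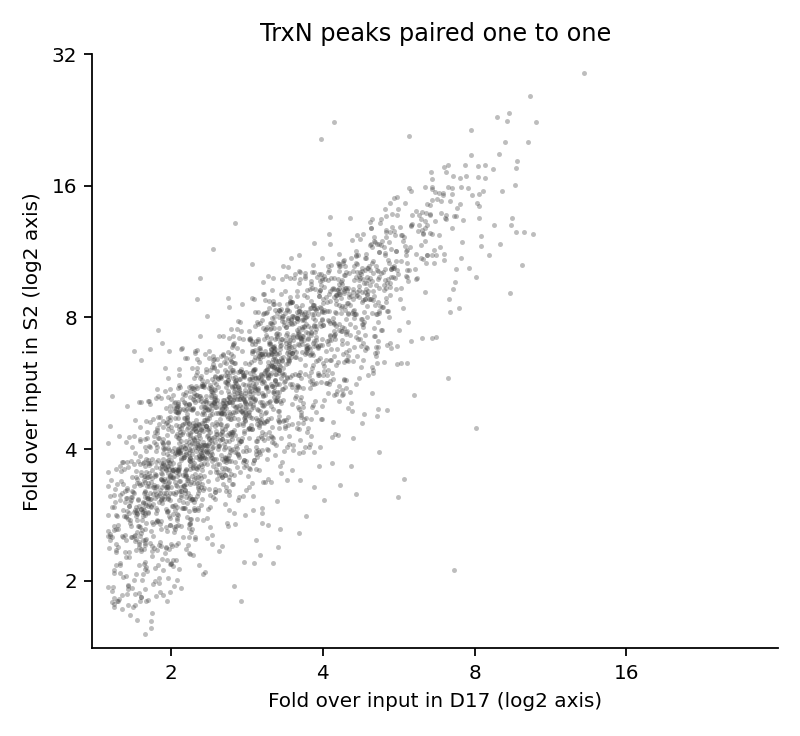
Fold over input of the TrxN peaks that pair 1 to 1, with D17 on the horizontal and S2 on the vertical axis (log2 axes), 1 point per pair. The cloud of 2545 pairs rises from the lower left to the upper right, with Spearman's rho of 0.829.

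The shared peaks with the highest rank in both lists lay close to gene ends and carried the marks of active promoters. CG32163 had the highest fold of either list, 13.2 in D17 and 29.0 in S2, with its summit 160 bp from the gene's end (dm6 3L:16587967-16588869). Atg8a, a ubiquitin-like protein of autophagosomes, had 10.3 in D17 and 25.6 in S2 (X:10767897-10769005). CycB, a mitotic cyclin, had 10.6 in D17 and 22.4 in S2. Asx, a PcG protein of the complex that removes H2AK118ub1, had 8.95 in D17 and 18.9 in S2. The others of the first 10 were stx, CG5510, CG14795, CG4360, Hacl and Snx27, with folds of 9.20 to 10.2 in D17 and 17.6 to 23.5 in S2. All 10 carried H3K4me3, H3K4me2 and H3K27ac in both lines, and 10 of 10 summits were within 164 bp of a gene end.

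TrxN classes differed in where they sat relative to genes. The summit was within 500 bp of an end of a protein-coding gene in 88.2% of D17 shared peaks (86.9% to 89.4%) and 88.2% of S2 shared peaks (86.9% to 89.5%). It was so in 61.5% of S2-only peaks (59.2% to 63.8%) and in 32.1% of D17-only peaks (25.7% to 39.2%). Most D17-only peaks lay away from gene ends: 38.3% had their summit deeper inside a gene and 29.6% outside genes. The median distance from summit to gene end was 48 bp in D17 shared, 49 bp in S2 shared, 149 bp in S2-only and 2628 bp in D17-only peaks. The gene table gave no strand, so both ends of a gene were used in place of its start.

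Shared TrxN peaks for the most part carried the marks of active promoters in their own line, with smaller shares among S2-only and the smallest among D17-only peaks. H3K4me3 lay over 88.5% of D17 shared peaks (87.2% to 89.7%) and 88.6% of S2 shared peaks (87.3% to 89.8%). It lay over 60.0% of S2-only peaks (57.7% to 62.2%) and 31.1% of D17-only peaks (24.7% to 38.1%). These intervals of the line-only classes do not overlap those of the shared classes. H3K27ac followed the same order, at 83.0% of D17 shared, 84.3% of S2 shared, 61.0% of S2-only and 36.2% of D17-only peaks. H3K36me3 was found at 64.9%, 61.1%, 40.7% and 20.4% of the same classes.

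Over the whole lists, the silencing mark ran the other way. H3K27me3 lay over 4.08% of D17 shared peaks (3.34% to 4.91%) and 5.49% of S2 shared peaks (4.64% to 6.44%). It lay over 16.7% of S2-only peaks (301 of 1803) and 30.6% of D17-only peaks (24.2% to 37.6%). Within each step of 20% of the S2 list by fold, the H3K27me3 intervals of the S2 classes overlapped. The lowest step had it at 20.9% of S2 shared (13.1% to 30.7%) and 27.5% of S2-only peaks (24.4% to 30.7%). In the lowest D17 step it lay at 8.6% of shared (6.1% to 11.6%) and 37.9% of D17-only peaks (29.35% to 47.05%). From the middle D17 step up, with at most 20 D17-only peaks per step, the intervals overlapped. H2AK118ub1 was found at 11.8% of D17 shared against 30.6% of D17-only peaks, and at 4.20% of S2 shared against 13.2% of S2-only peaks. A further 31.1% of D17-only and 16.6% of S2-only peaks carried none of H3K4me3, H3K27ac and H3K27me3 in their own line, against 6.44% of D17 shared and 5.72% of S2 shared peaks.

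**Figure D3:**
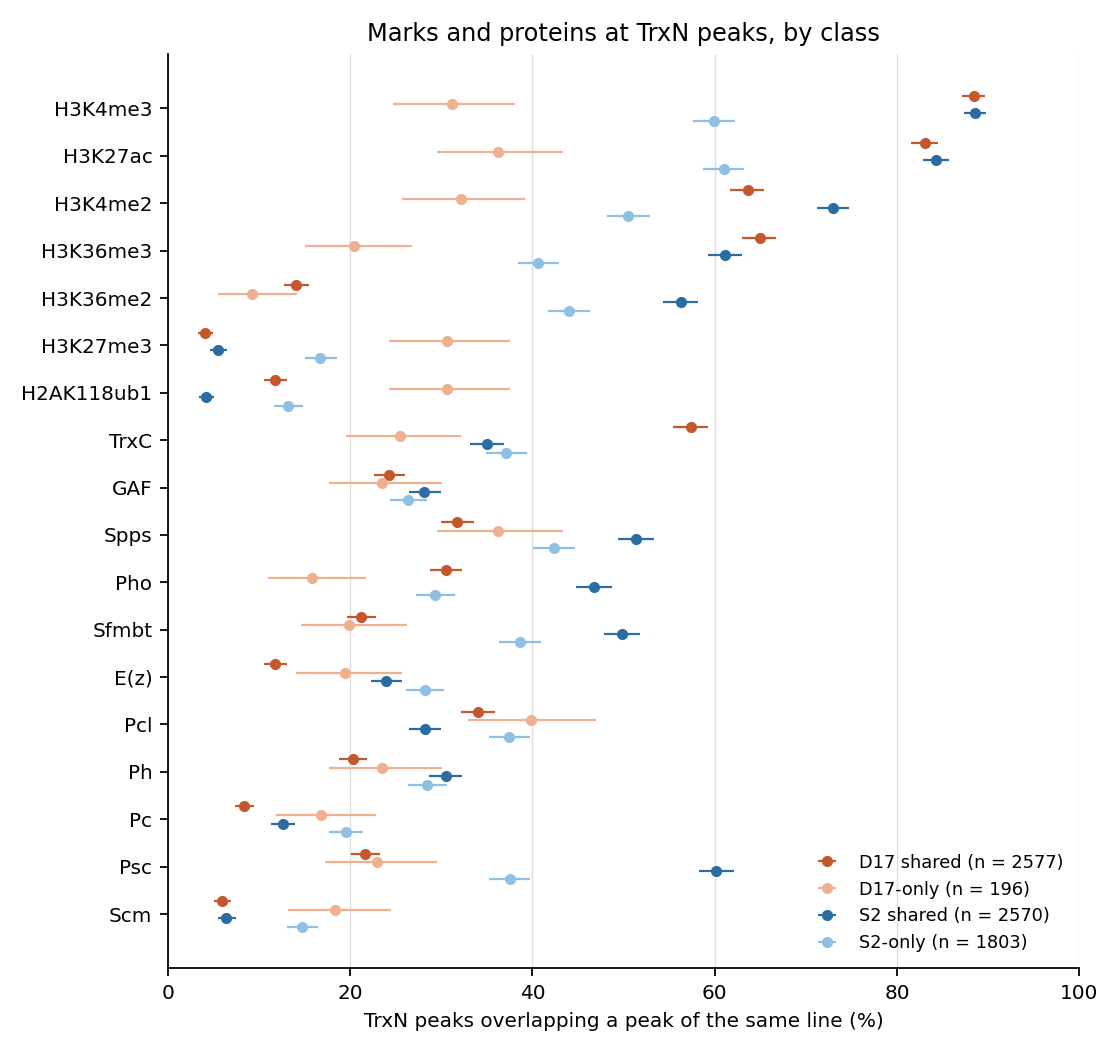
Share of TrxN peaks (%) that overlapped a peak of each mark or protein of the same line, for the 4 classes; points are shares and bars exact 95% binomial intervals. H3K4me3 and H3K27ac are most frequent at shared peaks, and H3K27me3 at D17-only peaks.

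Most line-only TrxN peaks with H3K4me3 had the mark in both lines, with a smaller share among D17-only peaks. Of the 1081 S2-only peaks with H3K4me3 in S2, 1008 were under H3K4me3 in D17 as well, which is 93.2% (91.6% to 94.7%). Of the 61 D17-only peaks with H3K4me3 in D17, 41 had it in S2, which is 67.2% (54.0% to 78.7%). Counted over all H3K4me3 peaks, 90.1% of the S2 list and 89.5% of the D17 list overlapped a peak of the other line. The S2-only value thus lay near the share of all H3K4me3 peaks, and the D17-only value below it. H3K27ac was present in the other line at 87.4% of the S2-only peaks that had it in S2, and at 49.3% of such D17-only peaks. Of all H3K27ac peaks, 77.6% in S2 and 63.35% in D17 were shared. Smaller shares held for H3K27me3 and H3K36me2. Of 301 S2-only peaks with H3K27me3 in S2, 50.2% had it in D17 (44.4% to 56.0%). Of 794 with H3K36me2 in S2, 18.3% had it in D17, where the H3K36me2 list held 1620 peaks against 2872 in S2. Over all S2 peaks of these marks, 33.05% of H3K27me3 and 44.4% of H3K36me2 peaks were shared with D17.

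Most promoters with H3K4me3 in S2 carried TrxN. In S2, 67.1% of the 5069 H3K4me3 peaks overlapped a TrxN peak, 47.6% a shared one and 21.5% an S2-only one. In D17, 47.1% of the 5097 H3K4me3 peaks did so, 46.1% with a shared and 1.16% with a D17-only TrxN peak. Shared TrxN peaks are the same places in both lines and most H3K4me3 peaks were shared, so near equality of their shares was built in. The lines differed in the share with a line-only TrxN peak.

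Within the S2 classes, the marks followed the fold rank. Among S2-only peaks, H3K4me3 lay over 40.5% in the lowest 20% of the S2 list and 93.3% of 15 in the highest, and H3K27me3 went from 27.5% to 0 of 15, which allows a share of up to 21.8%. Among S2 shared peaks, H3K4me3 went from 35.2% to 94.4%. Within steps of 20% of the S2 list, the second step had H3K4me3 at 70.6% of S2-only peaks (66.8% to 74.2%) and 79.9% of S2 shared peaks (74.6% to 84.5%), and the middle step at 79.4% (74.3% to 83.9%) and 87.7% (84.7% to 90.2%). The gap between the S2 classes was thus narrower within these steps than over the whole list, with intervals that do not overlap. In the other steps the intervals of the S2 classes overlap. The lowest step had H3K4me3 at 40.5% of S2-only (37.0% to 44.0%) and 35.2% of S2 shared peaks (25.4% to 45.9%), the reverse order. The fourth step had it at 84.3% (76.0% to 90.55%) and 92.2% (90.05% to 94.0%), and the highest at 93.3% and 94.4%. Within the lowest 20% of the D17 list, H3K4me3 lay at 22.6% of D17-only (15.6% to 31.0%) and 82.4% of D17 shared peaks (78.5% to 85.9%). Higher in the D17 list, it lay at 91.0% of D17 shared peaks in the middle step and 90.0% in the highest. Of D17-only peaks it lay at 55.0% of 20 in the middle step and 0 of 3 in the highest.

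**Figure D4:**
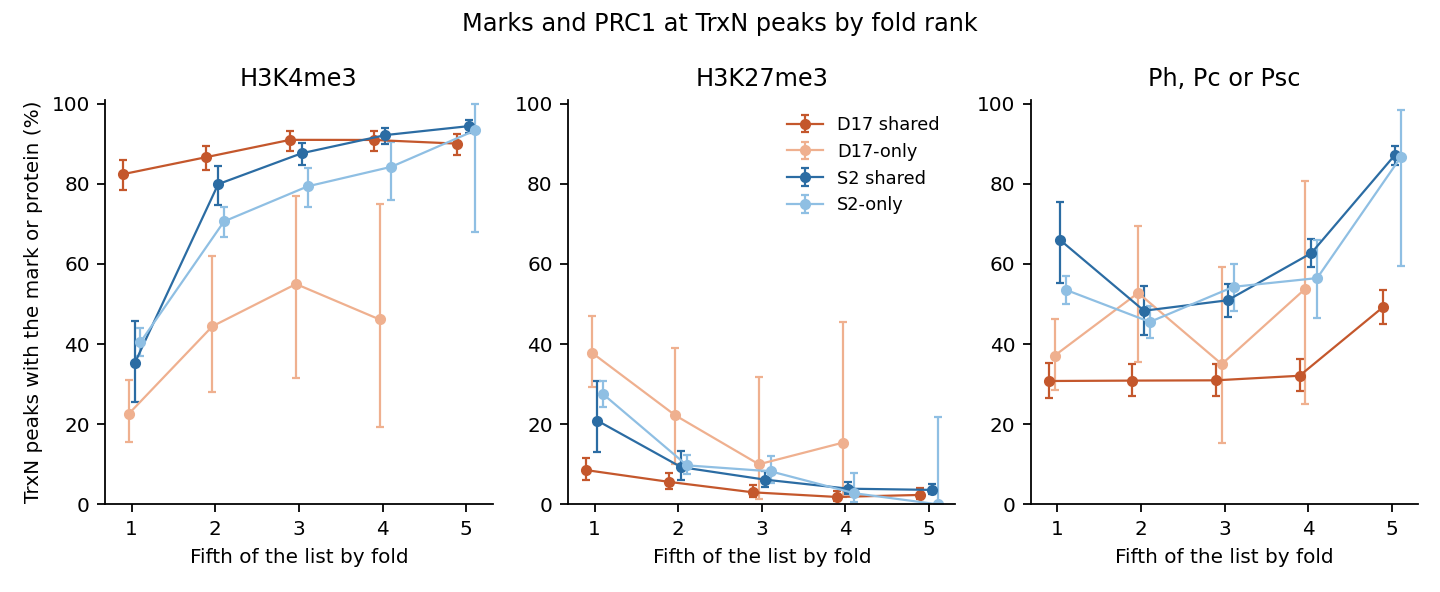
Share of TrxN peaks (%) with H3K4me3, H3K27me3 or a PRC1 protein in the same line, in steps of 20% of the list ranked by fold, for each class; bars are exact 95% binomial intervals, and classes with under 10 peaks in a step are not drawn. H3K4me3 climbs with rank in both S2 classes, from 35.2% to 94.4% in S2 shared peaks.

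PcG proteins lay at many TrxN peaks of every class. A peak of Ph, Pc or Psc of the same line overlapped 35.1% of D17 shared peaks (33.2% to 37.0%) and 40.8% of D17-only peaks (33.9% to 48.0%), and these intervals overlap. In S2 it overlapped 66.8% of shared peaks (65.0% to 68.7%) and 51.4% of S2-only peaks (49.1% to 53.8%). Within the steps of the S2 list by fold used above, the intervals of the S2 classes overlapped throughout. The lowest step had such a peak at 65.9% of shared (55.25% to 75.55%) and 53.5% of S2-only peaks (49.95% to 57.05%). The second step had it at 48.3% and 45.5%, and the middle step at 50.9% and 54.3%, the reverse order. The fourth step had it at 62.7% and 56.5%, and the highest at 87.2% and 86.7%. Over the whole list, Psc accounted for most of the S2 value, with 60.2% of shared and 37.5% of S2-only peaks. In D17 it lay at 21.7% of shared and 23.0% of D17-only peaks. The Psc list held 3780 peaks in S2 and 2316 in D17, and the part of this difference in length was not tested.

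Over the whole lists, the PcG proteins differed in which class had the larger share. Line-only peaks lay lower by fold, and Pc, Scm, Sfmbt, Pcl and E(z) were not split by fold rank. Pc, the reader of H3K27me3, had larger shares at line-only peaks: at 16.8% of D17-only against 8.34% of D17 shared peaks, and at 19.5% of S2-only against 12.6% of S2 shared peaks. Scm, a PcG protein that bridges complexes, showed the same order, with 18.4% against 5.94% in D17 and 14.7% against 6.42% in S2. The DNA-binding Pho showed the opposite order, at 30.5% of D17 shared against 15.8% of D17-only peaks, and at 46.8% of S2 shared against 29.3% of S2-only peaks. Within steps of 20% of a list by fold, the Pho intervals of the classes overlapped in all but the lowest S2 step. That step had Pho at 45.05% of shared (34.6% to 55.8%) and 27.5% of S2-only peaks (24.4% to 30.7%). The lowest D17 step had it at 20.1% of shared and 16.1% of D17-only peaks, and the middle S2 step at 35.3% and 34.0%. Pho's partner Sfmbt was found at 49.8% of S2 shared against 38.6% of S2-only peaks, and at 21.2% of D17 shared against 19.9% of D17-only peaks. Ph was found at similar shares, 20.3% and 23.5% in D17 and 30.5% and 28.5% in S2 for shared and line-only peaks. Pcl, a partner of PRC2, was found at 34.0% of D17 shared, 39.8% of D17-only, 28.2% of S2 shared and 37.4% of S2-only peaks, so that its share was not larger in S2. E(z), the methyltransferase of PRC2, was found at 11.7% of D17 shared, 19.4% of D17-only, 24.0% of S2 shared and 28.2% of S2-only peaks.

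TrxN peaks with all of Ph, Pc, Psc and Pho made up 3.57% of D17 shared (2.89% to 4.36%) and 7.14% of D17-only peaks (3.96% to 11.7%). In S2 they made up 7.98% of shared (6.96% to 9.09%) and 10.3% of S2-only peaks (8.90% to 11.8%). Of the 8 PcG lists (Ph, Pc, Psc, Scm, E(z), Pcl, Pho and Sfmbt), none overlapped 41.8% of D17 shared, 37.2% of D17-only, 20.9% of S2 shared and 27.8% of S2-only peaks. All 8 did so at 2.60%, 5.61%, 2.92% and 6.43% of the same classes.

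In every class but D17-only, most of the few TrxN peaks inside H3K27me3 had a PRC1 protein. Of the 105 D17 shared peaks with H3K27me3 in D17, 84.8% (76.4% to 91.0%) had a PRC1 protein, 73.3% had Pc and 87.6% had TrxC. Of the 141 such S2 shared peaks, 86.5% (79.8% to 91.7%) had a PRC1 protein, and of the 301 such S2-only peaks 71.1% (65.6% to 76.2%). Of the 60 such D17-only peaks 43.3% (30.6% to 56.8%) did, against 39.7% (31.4% to 48.5%) of the 136 D17-only peaks without H3K27me3. The median fold percentile of the 60 was 4.39. The S2-only peaks with H3K27me3 also lay low, at a median percentile of 8.37, against 55.4 for S2 shared peaks with the mark. At TrxN peaks with H3K4me3, PRC1 was found at 30.9% of D17 shared, 36.1% of D17-only, 65.0% of S2 shared and 39.3% of S2-only peaks, and Pc at 4.65%, 9.84%, 8.30% and 6.38%.

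The C-terminal fragment accompanied the N-terminal one at part of the peaks. TrxC peaks overlapped 57.4% of D17 shared and 25.5% of D17-only peaks, and 35.0% of S2 shared and 37.1% of S2-only peaks. The TrxC list was the longer one in D17, with 5555 peaks against 2719 in S2, the reverse of TrxN. At 1008 of the 1803 S2-only TrxN peaks (55.9%, 53.6% to 58.2%) there was a TrxC peak in D17, where no TrxN peak was called. At 447 of these the TrxC peak was in the D17 list alone. Cohesin's subunit Rad21, profiled here in S2, lay at 86.5% of S2 shared and 64.7% of S2-only peaks. Engrailed, a homeodomain repressor used as an antibody target in D17, lay at 5.78% of D17 shared and 11.7% of D17-only peaks. GAF, which binds GA-rich DNA and is encoded by Trl, lay at 23.5% to 28.1% of every class.

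Line-only peaks were spread unevenly over the chromosomes. The X chromosome held 64 of the 196 D17-only peaks, which is 32.7% (26.1% to 39.7%), against 18.9% of D17 shared peaks (17.4% to 20.4%). In S2 it held 10.6% of S2-only peaks (9.21% to 12.1%) against 19.0% of shared peaks (17.5% to 20.6%). Seen from the lists, 88.4% of D17 TrxN peaks on X were shared against 94.0% on the autosomes, and 71.9% of S2 peaks on X against 56.4% on the autosomes. The X held 19.8% of the D17 TrxN list and 15.5% of the S2 TrxN list, while it held 19.1% and 18.8% of the H3K4me3 lists. D17-only peaks on X had a median fold percentile of 22.8, against 8.18 on the autosomes, and 7 of the 10 D17-only peaks with the highest fold were on X.

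The D17-only peaks with the highest fold were mixed in kind. The first, with a fold of 5.34 and a percentile of 92.3 (dm6 X:4506678-4507559), had no protein-coding gene end within 1 kb, carried H2AK118ub1 and Pcl in D17 and overlapped no S2 list. The second, with a fold of 4.75, had its summit 181 bp from an end of sbr, which encodes an mRNA export receptor. The third, with 4.69, lay inside Cph under H3K27me3, H2AK118ub1 and Psc. Further genes within 1 kb of one of these peaks were CG8745 with 3.95, sordd2 with 3.92, CG2224 with 3.74 and Trxr1, a thioredoxin reductase, with 3.36. The other 3 of the 10 lay without a gene end within 1 kb, at folds of 3.42 to 3.67, 1 of them inside kek5 and 1 inside CG32647.

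The S2-only peaks with the highest fold lay mostly at places with H3K4me3 in both lines, 8 of 10. The first, with a fold of 10.9 and a percentile of 95.7, lay near mRpS5, a protein of the mitochondrial ribosome, with its summit 1098 bp from the gene's end (dm6 3L:24535787-24537517). The second, at eag, a potassium channel gene, had 9.39 and carried no H3K4me3 in either line. E(bx), the large subunit of the NURF remodeller, had 9.27 (3L:246604-247359). Others of the 10 were a peak inside Marf1 with 9.07, Mpc1, a carrier of pyruvate into mitochondria, with 9.06, vib with 7.92, Cdep with 7.50, bif with 7.42 and Prat, an enzyme of purine synthesis, with 7.29. The peaks at mRpS5, Marf1 and Cdep lie where numbers are missing from the D17 names, so a D17 peak there may be missing from the values used here. In all, 134 of the 1803 S2-only peaks (7.43%) and 9 of the 196 D17-only peaks (4.59%) lay in such stretches.

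TrxN and H3K4me3 were called in the same single line at few peaks, 20 D17-only and 73 S2-only. In D17 the highest folds among those near a gene end were at CG8745 (3.95), ATPsynepsilonL (3.28), CG31601 (2.62), CG2258 (2.49) and Trf2, a factor related to the TATA-binding protein (2.13). In S2 high folds of this kind were at blanks, which encodes a binder of double-stranded RNA (5.99), fz3, a Frizzled receptor (5.46), CG32706 (5.29) and CG30059 (5.13).

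Counted by gene, TrxN lay within 500 bp of an end of 29.9% of the 13946 protein-coding genes in D17 and 41.8% in S2. It did so in both lines at 4075 genes (29.2%), in D17 alone at 91 (0.653%) and in S2 alone at 1750 (12.5%). A single peak can serve several genes, since promoters of neighbours are often close. A gene counted in both lines need not have the same peak in both: at vg, an appendage gene, the strongest peak of each line was line-only. At 59 of the S2-alone and 5 of the D17-alone genes the strongest peak was itself shared, with the peak of the other line lying over 500 bp from the gene's end. H3K4me3 was found in both lines at 94.8% of the genes with TrxN in both, at 83.1% of those with TrxN in S2 alone and at 62.6% of those with TrxN in D17 alone. The share was 48.7% over all 13946 genes and 17.65% of those with TrxN in neither.

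The share of genes with TrxN at an end was smaller among genes covered by H3K27me3. Of the 776 genes with H3K27me3 over at least 50% of the body in both lines, 8.51% had TrxN in D17 and 16.4% in S2. Of the 11407 genes covered in neither line, 34.7% had TrxN in D17 and 48.0% in S2. Genes that were covered in 1 line alone did not have TrxN mainly in the other line. Of the 1472 covered in S2 alone, 8.02% had TrxN in both lines, 0.340% in D17 alone and 5.91% in S2 alone. Of the 291 covered in D17 alone, 10 had it in both lines, 4 in D17 alone and 10 in S2 alone.

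Lists of genes grouped by role were read against the shares of all genes, 29.2% with TrxN in both lines, 0.653% in D17 alone and 12.5% in S2 alone. Over the 5 lists of developmental regulators (for segment identity, segmentation, appendages, the eye and head, and nerve and muscle), 23 of 104 genes had TrxN in both lines (22.1%), 1 in D17 alone and 20 in S2 alone (19.2%). Over the 4 lists of PcG, trithorax group, housekeeping and growth genes, 63 of 104 had it in both (60.6%), 1 in D17 alone and 20 in S2 alone (19.2%). These are pooled counts: among the single lists pooled here, S2 alone ranged from 1 of 29 segmentation genes to 3 of 8 homeotic genes. The chromatin around them differed too: H3K27me3 covered 19 of the 20 S2-alone developmental regulators in S2 and 13 in D17, but 3 and none of the 20 S2-alone genes of the other lists. The lists as a whole differed in the same way: the mark covered 80 of the 104 developmental regulators in S2 and 70 in D17, but 4 and 0 of the other 104 genes. Of the 23 developmental regulators with TrxN in both lines, it covered 18 in S2 and 17 in D17.

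**Figure D5:**
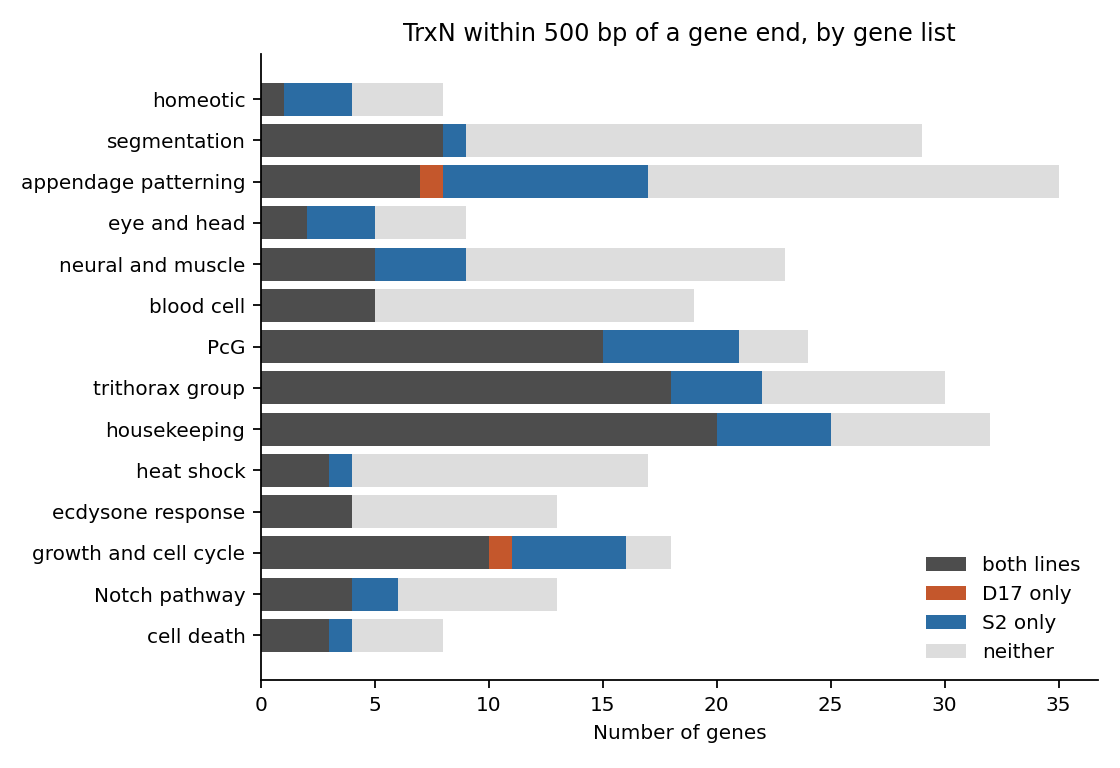
Number of genes of each list with TrxN within 500 bp of a gene end in both lines, in D17 alone, in S2 alone or in neither. D17 alone holds 1 gene each of the appendage and the growth list, and the PcG, trithorax group and housekeeping lists have most of their genes in the class of both lines.

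Of the 8 homeotic genes, which set segment identity, Dfd had TrxN in both lines, with folds of 3.15 in D17 and 7.01 in S2. Ubx with a fold of 2.49, abd-A with 3.55 and pb with 1.82 had it in S2 alone, and lab, Scr, Antp and Abd-B in neither. H3K27me3 covered all 8 in both lines, and none had H3K4me3 at an end. The TrxN peaks of the homeotic genes thus sat in chromatin with H3K27me3.

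Among 29 segmentation genes, 8 had TrxN in both lines and 1, Dll, in S2 alone at a fold of 1.85. Dll encodes a homeodomain protein of the distal appendages. At en, the selector of the posterior compartment, TrxN was present in both lines (2.95 in D17 and 3.60 in S2), while the gene body was free of H3K27me3 in D17 and covered over 100% in S2. At hh, the Hedgehog ligand, the folds were 3.01 in D17 and 5.74 in S2, and at wg, a Wnt ligand, 1.52 and 2.48. H3K4me3 lay at en in D17 alone and at hh in both lines.

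Among 35 appendage genes, 7 had TrxN in both lines, 1 in D17 alone and 9 in S2 alone. The highest folds were at smo, the signal transducer of Hedgehog, with 6.52 in D17 and 14.5 in S2. The D17-alone gene was Lim1, a LIM-homeodomain gene, at a fold of 1.63 and a percentile of 5.01, with H3K27me3 over its whole body in both lines. In S2 alone TrxN lay at bab1 (10.6), zfh2 (5.53), C15 (3.54), mirr (3.18), ap (2.56), drm (2.28), nub (1.83), dac (1.71) and bab2 (1.61). The bab1 peak was a shared one whose D17 counterpart lay over 500 bp from the gene's end. At bab1, bab2 and zfh2, H3K27me3 covered 78.7%, 74.4% and 93.2% of the body in S2 and none in D17. At the ends of zfh2 and bab2 H3K4me3 was present in D17 and absent in S2, while TrxN was called there in S2 alone. The bab2 peak lay at a percentile of 4.44. S2 alone was the larger class among all genes too, 1750 against 91 in D17 alone. At pnr, a GATA factor, the body was covered over 91.7% in D17 and free in S2, and TrxN was present in both lines with 1.74 and 4.22.

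Of the 9 eye and head genes, ey (3.48 in D17 and 8.66 in S2) and eyg (1.97 and 2.87) had TrxN in both lines, and toy (1.70), so (1.81) and Optix (1.89) had it in S2 alone. Of the 23 neural and muscle genes, 5 had it in both lines and 4 in S2 alone. The latter were gcm2, a glial and blood cell regulator, at 7.19, lbl at 2.48, tin, the heart regulator, at a percentile of 21.6, and nerfin-1 at 1.51. The Mef2 gene of muscle had 2.06 in D17 and 5.00 in S2, with H3K4me3 in both.

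Of the 19 blood cell genes, 5 had TrxN in both lines and none in S2 alone. They were Hml, the hemocyte protein hemolectin (5.00 in D17 and 6.18 in S2), Pvr, a growth factor receptor (4.81 and 6.40), zfh1 (3.31 and 4.24), ush (2.48 and 4.84) and crq, a scavenger receptor (1.52 and 2.55).

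Of the 24 PcG genes, 15 had TrxN in both lines and 6 in S2 alone. The highest folds were at Asx, at Sfmbt (7.86 in D17 and 18.8 in S2) and at Pc (5.99 and 15.6). In S2 alone it lay at jing (2.80), sxc (2.70), Su(z)2 (2.68), ph-d (2.38), escl (1.83) and Psc (1.62). The neighbours Psc and Su(z)2 had H3K4me3 in D17, while H3K27me3 covered 100% and 83.8% of their bodies in S2. TrxN at both was called in S2, the line where they were covered, and the Psc peak lay at a percentile of 4.71. S2 alone held 1750 of all genes and D17 alone 91, and a link between TrxN and the mark was not tested. An end of escl lies where the D17 names lack a number.

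Of the 30 trithorax group genes, 18 had TrxN in both lines and 4 in S2 alone. The fold was highest at fs(1)h, a BET protein (9.61 in D17 and 16.1 in S2), and in S2 next at Iswi, a remodeller ATPase (4.12 in D17 and 12.4 in S2), and kis, a CHD-type remodeller (4.31 and 9.54). S2 alone had it at E(bx) (9.27), at Set1, the main H3K4 trimethylase (5.41), at Mnn1, the fly menin (4.42), and at vtd, which encodes Rad21 (3.46). The trx gene itself had no TrxN peak at its ends in either line, nor had Trl. The Set1 peak was a shared one, and an end of vtd lies where the D17 names lack a number.

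Of 32 housekeeping genes, 20 had TrxN in both lines and 5 in S2 alone, with the highest folds at His2Av (6.53 in D17 and 12.5 in S2) and RpL32 (5.94 and 10.3). Of 18 growth and cell cycle genes, 10 had it in both and 5 in S2 alone. Rbf, the fly retinoblastoma protein, had it in D17 alone at 1.93. Diap1, an inhibitor of apoptosis, had 7.24 in D17 and 16.9 in S2 with no H3K4me3 at its ends in either line. Among 17 heat shock genes, 3 had it in both and 13 in neither. Among 13 ecdysone response genes, 4 had it in both, with the highest D17 fold at ftz-f1 (4.78 in D17 and 8.66 in S2) and the highest S2 fold at chinmo (3.52 and 10.0). Among 13 Notch pathway genes, 4 had it in both, led by E(spl)m8-HLH (6.27 and 10.9) and Su(H) (5.69 and 12.9), and 2 in S2 alone. Among 8 cell death genes, 3 had it in both and 1 in S2 alone, while rpr, hid, grim and skl, the activators of apoptosis, had it in neither.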

How the data were processed

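ChIP-seq peak lists of D17 and S2 were used, 40 of the 50 deposited lists, with 1 list per antibody and line. Kc167 was not used beyond its number of peaks, since its lists include none for TrxN. Per the submitters' processing notes, the tools were Trim Galore 0.6.4, Bowtie2 2.3.5.1, SAMtools 1.13, bedtools 2.29.2 and MACS2 2.2.6, with genome builds BDGP6 and dm6. How replicates and input entered a list is not given in the sources used here. The authors deposited, for each peak, a score, an enrichment over input (the fold, a linear ratio), a −log10 q-value and, in narrow lists, a summit offset. In both TrxN lists the score was the rounded −log10 q times 10, to within 1. The lowest deposited TrxN fold was 1.50.

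From these, overlaps (at least 1 bp), fold ranks, exact binomial intervals and distances to ends of 13946 protein-coding genes (RefSeq table of Release 6 plus ISO1 MT, without strand) were computed. No genome sequence was used here. Scores served only to select peaks in alternatives, namely the higher-scoring 50% and an S2 list of equal length. The other alternatives were an overlap of 50% of the width, gaps of up to 500 bp, no X and Y, gene windows of 1 kb or 0 bp and, chosen after seeing the data, no line-only peaks at skipped numbers. The members, classes and gene lists were chosen with earlier results of these data known. Of the list symbols, 7 found no match. Named were the 10 peaks with the highest fold per class (for shared peaks, the highest lower percentile of the pair), list members with TrxN in 1 line alone (2 in D17, and the first 30 in list order of 44 in S2) and the 5 line-only promoters per line with the highest fold and H3K4me3 in that line alone. An item that this rule names is not reported here. Genes of the lists outside this rule, among them those with TrxN in both lines or in neither, were chosen after their values were seen. In simulated lists, 400 of 400 planted overlaps among 1000 peaks were found, with 0 false calls. Counts equalled those of bedtools 2.31.1 in 80 of 80 comparisons. The tools were SciPy 1.17.1, pandas 2.3.3 and NumPy 2.4.6 in Python 3.11.15, with plots by matplotlib 3.10.9.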

Additional observations from a re-analysis of the deposited data

How the results depend on the processing

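No paired analysis was possible because the lists carry no values per replicate. With an overlap of 50% of the width, S2 peaks shared with D17 were 56.0%, the median percentile of S2-only peaks was 24.9, H3K4me3 lay at 74.1% of D17 shared, 71.6% of S2 shared and 48.5% of S2-only peaks, and a PRC1 protein at 27.5%, 49.7% and 45.3%. In the higher-scoring 50% of each list, where peaks whose partner was removed become line-only (907 S2-only peaks), H3K4me3 lay at 92.0% of D17 shared, 56.5% of D17-only, 92.0% of S2 shared and 91.1% of S2-only peaks. There PRC1 lay at 39.5% of D17 shared, 78.9% of S2 shared and 60.4% of S2-only peaks, the median percentile of D17-only peaks was 20.7, and 2176 genes had TrxN in both lines. With the S2 list shortened to 2773 peaks, 82.1% of D17 and 81.8% of S2 peaks were shared. The median percentiles were then 57.8 in D17 shared, 57.9 in S2 shared and 18.7 in S2-only peaks. H3K4me3 lay at 91.1% of D17 shared, 53.7% of D17-only, 91.6% of S2 shared and 81.0% of S2-only peaks, and PRC1 at 69.3% of S2 shared and 54.3% of S2-only peaks. The genes with TrxN in D17 alone were then 441 and in S2 alone 641, since fewer S2 peaks remain. Without X and Y, 94.0% of D17 and 56.4% of S2 peaks were shared. Without line-only peaks at skipped numbers, 60.6% of S2 peaks were shared. Other values under these settings, and all under gaps of 500 bp or gene windows of 1 kb and 0 bp, stayed within the interval of the main value, or within 1.5 times for gene counts. In the 5 settings that recomputed it, line-only peaks had a lower median percentile than shared peaks of their list. The cause of the other shifts was not tested. Weak sites may be missed in D17 at unknown depth, and this cannot be told apart from absence of TrxN.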

Other observations

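The TrxC lists had few peaks on X, 7.08% in D17 and 9.42% in S2, against 19.8% and 15.5% of the TrxN lists.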
